A study of Mus musculus with 24 samples.

Results

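The transcripts described here belong to 10 genes that carry iron into cells, store it, release it or sense it: Tfrc, Trf, Fth1, Ftl1, Slc11a2, Slc40a1, Hmox1, Cp, Ireb2 and Aco1. They were taken by symbol from a table of 47643 gene symbols, and all 10 were found. Each averaged at least 1 TPM (an abundance corrected for transcript length, with an equal sum over all genes for every library) in every region, so no member was lost to the filter on low values. The samples were bulk RNA of hippocampus, cerebellum and neocortex from male C57BL/6J mice aged 4 months. The LLC groups were mice injected with LLC cells and sampled about 3 weeks later, and the control groups were mock-injected mice. LLC is the usual short name of the Lewis lung carcinoma line, but no label writes it in full, and the title names melanoma. Each of the 6 groups had 4 libraries, numbered 1 to 4 for LLC and 14 to 17 for control mice. The labels call them biological replicates and do not say whether the hippocampal, cerebellar and neocortical libraries of a number came from 1 animal.

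Most cells take up iron as transferrin, encoded by Trf, through the transferrin receptor encoded by Tfrc, and move it out of the endosome through the carrier encoded by Slc11a2. Spare iron is kept in ferritin, a shell of heavy and light chains encoded by Fth1 and Ftl1. Iron leaves through ferroportin, the product of Slc40a1 and the known cellular iron exporter, and the ferroxidase ceruloplasmin, encoded by Cp, oxidises it for transferrin. In the brain, oligodendrocytes are rich in ferritin and make much of the local transferrin, endothelial cells carry iron across the blood-brain barrier, and astrocytes make ceruloplasmin. When iron is scarce, the iron regulatory proteins encoded by Aco1 and Ireb2 bind hairpins called iron-responsive elements. Binding in the 5′ untranslated region blocks translation, and binding in the 3′ untranslated region protects the transcript from decay, so RNA levels of ferritin or ferroportin do not report the amount of protein.

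The elements are shown because RNA is known to follow iron through 3′ elements, and translation through 5′ ones. The letters searched were a C, any 5 bases, the loop CAGTGN and 5 bases that pair with the first 5, allowing G-U pairs, on the transcript strand of GENCODE M21 untranslated regions on mm10. Capitals mark the loop, and each sequence runs 5′ to 3′ along the transcript.
Fth1 5′ element, chr19:9982732-9982760, plus strand: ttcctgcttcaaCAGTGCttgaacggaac
Ftl1 5′ element, chr7:45459779-45459807, minus strand: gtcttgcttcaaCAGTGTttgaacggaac
Slc40a1 5′ element, chr1:45925465-45925493, minus strand: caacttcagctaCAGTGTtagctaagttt
Tfrc 3′ element, chr16:32631219-32631247, plus strand: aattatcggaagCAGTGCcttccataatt
Tfrc 3′ element, chr16:32631598-32631626, plus strand: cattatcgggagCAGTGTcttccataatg
Tfrc 3′ element, chr16:32631663-32631691, plus strand: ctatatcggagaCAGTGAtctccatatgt
Tfrc 3′ element, chr16:32631710-32631738, plus strand: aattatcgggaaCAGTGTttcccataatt
The pattern stood in the 5′ region of 3 members, Fth1, Ftl1 and Slc40a1, and in the 3′ region of 1, Tfrc. Among all annotated genes it stood in 30 of 20105 with a 5′ region (0.149%) and in 127 of 20858 with a 3′ region (0.609%). The other 6 members held no match to these letters, which says nothing of elements of another form.

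Each library had 14368 to 14847 genes at 1 TPM or more, and no 2 of the 276 pairs of libraries were identical. TPM values hold no read count, so the depth is unknown. The regions followed their labels: Gabra6, a receptor subunit of cerebellar granule cells, was at most 0.403 TPM outside the cerebellum. Within it, Gabra6 stood at 455 TPM in LLC replicate 1, apart from 830 to 959 TPM in the other LLC and 761 to 986 TPM in the control libraries. LLC replicate 4 stood apart from the other LLC libraries in all 3 regions by its low erythrocyte transcripts. The summed erythrocyte markers were 3566 TPM in its neocortex, 4251 TPM in its cerebellum and 2623 TPM in its hippocampus. In the other LLC libraries they were 7106 to 15583 TPM, and in controls 730 to 1624 TPM. Its summed neutrophil markers were instead the highest of the LLC libraries in each region. They were 209 TPM in neocortex, 157 TPM in cerebellum and 121 TPM in hippocampus. The next highest LLC sums were 176, 110 and 83.8 TPM, all in LLC replicate 2. In bulk tissue, fewer cells of a type and less RNA per cell cannot be told apart.

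**Figure D1:**
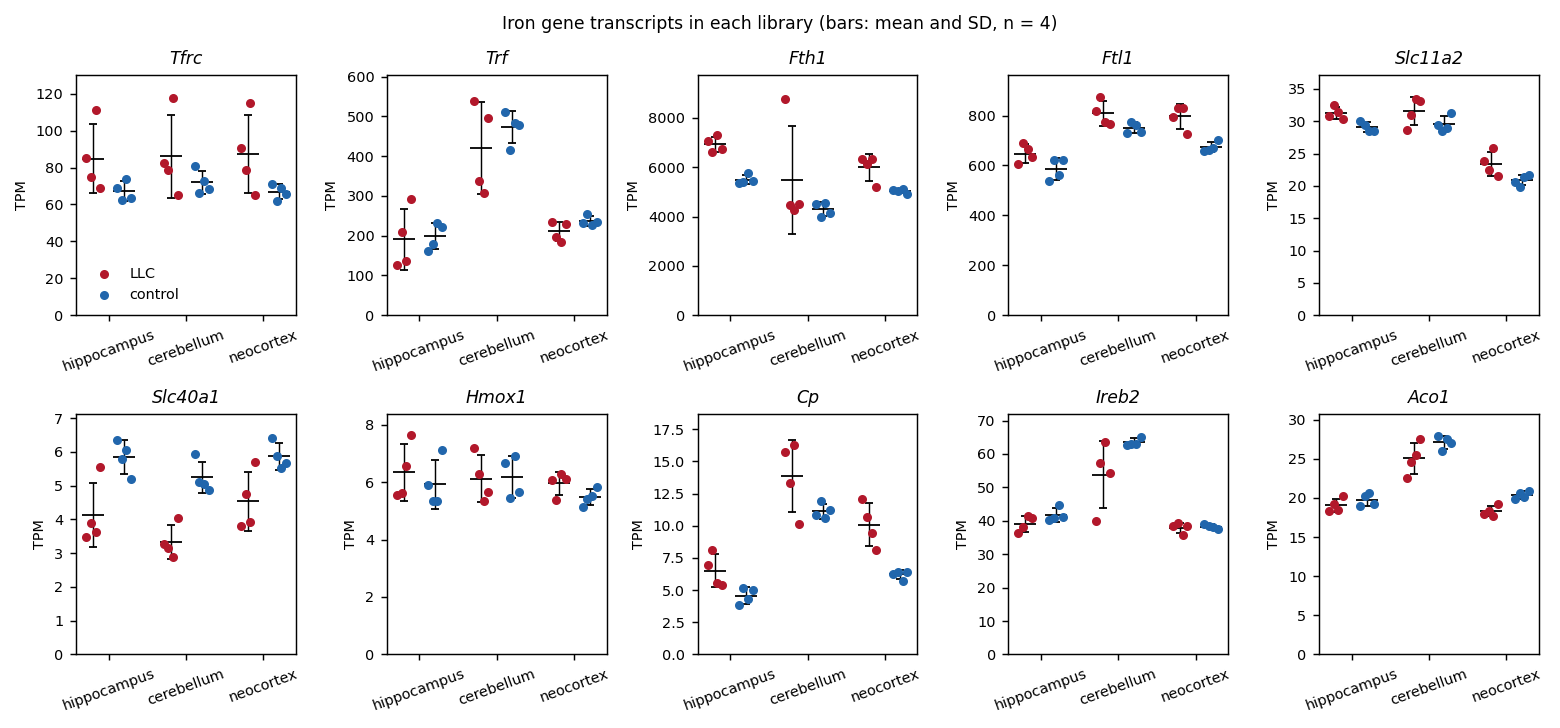
TPM of the 10 genes in each of the 24 libraries, by region, with LLC libraries in red left of control libraries in blue; bars are the mean and SD of 4 libraries, and points within a group run in the order of the replicate numbers. The red points lie above the blue ones for Fth1 in hippocampus and neocortex and below them for Slc40a1 in cerebellum, and 1 cerebellar LLC library has 8767 TPM of Fth1.

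Averaged over regions, ferritin and ceruloplasmin transcripts were higher, and ferroportin transcripts lower, in LLC than in control mice. In neocortex Fth1, Ftl1 and Cp rose. In hippocampus Fth1 rose, and in cerebellum Slc40a1 fell. In the mean over the 3 regions of each replicate number, Fth1, Ftl1 and Cp rose and Slc40a1 fell, by 0.16 to 0.44 on the log2 scale (n = 4 LLC and 4 control means). The tests were limma on log2(TPM + 1) across all genes, and rose or fell means a Benjamini-Hochberg adjusted p under 0.05.

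In neocortex 3 of 10 members passed, beside 8.54% of all genes tested, and in the region average 4 of 10 passed, beside 14.2%. In hippocampus 1 of 10 passed, beside 3.61%, and in cerebellum 1 of 10, beside 2.50%. The median log2 difference of the members was 0.09 in hippocampus, 0.04 in cerebellum and 0.13 in neocortex, where that of all genes was 0.01, -0.04 and 0.01. The 4 LLC and 4 control libraries did not overlap for 4 members in neocortex: Fth1, Ftl1 and Cp were higher, beside 10.9% of all genes, and Aco1 was lower, beside 6.18%. In cerebellum they did not overlap for 1 member (Slc40a1, lower), beside 10.3% of all genes in that direction, and in hippocampus for 3 (Fth1, Slc11a2 and Cp, higher), beside 8.95%. In hippocampus and cerebellum the share of members that passed rests on 1 gene each.

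**Figure D2:**
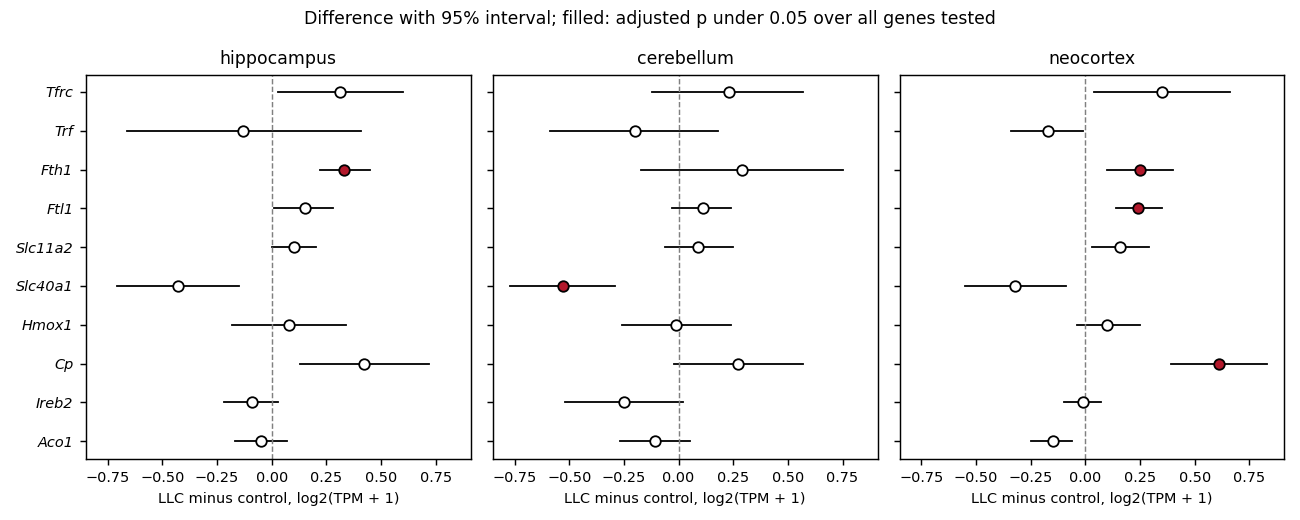
Difference between LLC and control libraries in log2(TPM + 1) for each gene in each region, with its 95% interval from limma (4 LLC and 4 control libraries a region); filled points have an adjusted p under 0.05 over all genes tested. Fth1, Ftl1 and Cp in neocortex, Fth1 in hippocampus and Slc40a1 in cerebellum are filled, and the Slc40a1 points lie left of 0 in all 3 regions.

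Of the storage genes, Fth1 (chromosome 19, 9980598 to 9985098, plus strand) encodes the ferritin heavy chain, which oxidises the iron that enters the shell. In neocortex its values were 6354, 6127, 6344 and 5186 TPM in LLC mice, in the order of replicates 1 to 4, against 5061, 5018, 5114 and 4906 TPM in control mice, in the order of replicates 14 to 17. Every LLC value was above every control value, and LLC replicate 4 was the closest to the controls. The log2 difference was 0.25 ± 0.07 (SE; limma adjusted p = 0.0452). The call was lost without any 1 of the libraries other than LLC replicate 4 (limma adjusted p = 0.0912 to 0.131, over LLC replicates 1 to 3 and control replicates 14 to 17) and was stronger without LLC replicate 4 (0.32 ± 0.04, limma adjusted p = 4.88e-04). It was also lost without the filter (limma adjusted p = 0.158), with median-ratio scaling (0.0563) and with each library's trend in GC content and length removed (0.0503).

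In hippocampus Fth1 stood at 7075, 6628, 7305 and 6730 TPM in LLC mice, against 5379, 5397, 5768 and 5458 TPM in control mice. All 4 LLC libraries, replicate 4 included, lay well above the controls. The log2 difference was 0.33 ± 0.05 (limma adjusted p = 0.0179). It was lost without control replicate 14, 15 or 17 (limma adjusted p = 0.0516 to 0.0658) at nearly the same size, 0.32 to 0.33, and without the filter (limma adjusted p = 0.119).

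In cerebellum Fth1 stood at 8767, 4464, 4253 and 4497 TPM in LLC mice, against 4519, 3962, 4536 and 4136 TPM in control mice. LLC replicate 1 alone was high, and the other LLC libraries lay among the controls. The log2 difference was 0.29 ± 0.21 (limma adjusted p = 0.409) and, without LLC replicate 1, 0.04 ± 0.07 (limma adjusted p = 0.711). The same library had the highest sum of 10 myelin markers in the region, 4837 TPM, where the other LLC libraries had 2349 to 3182 TPM and the controls 2949 to 3647 TPM, and the lowest Gabra6. The part of this make-up in its Fth1 value was not tested.

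Ftl1 (chromosome 7, 45457944 to 45459884, minus strand) encodes the light chain, which helps the iron core form. In neocortex it stood at 796, 832, 832 and 726 TPM in LLC mice, against 659, 661, 670 and 701 TPM in control mice. The groups did not overlap, and the log2 difference was 0.24 ± 0.05 (limma adjusted p = 0.0203). It was lost without LLC replicate 1 or 2 or control replicate 14, 15 or 16 (limma adjusted p = 0.0533 to 0.0710). In cerebellum Ftl1 stood at 817, 876, 776 and 767 TPM in LLC mice, against 731, 776, 762 and 734 TPM in control mice. In hippocampus it stood at 604, 688, 665 and 634 TPM in LLC mice, against 537, 621, 563 and 623 TPM in control mice. In both regions the groups overlapped, with log2 differences of 0.11 ± 0.06 in cerebellum (limma adjusted p = 0.305) and 0.15 ± 0.06 in hippocampus (limma adjusted p = 0.196). With the GC and length trend removed, the cerebellar difference was -0.05 (limma adjusted p = 0.717).

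Over the region average, Fth1 rose by 0.29 ± 0.08 and Ftl1 by 0.16 ± 0.04 on the log2 scale (limma adjusted p = 0.0457 and 0.0312). Both calls were lost without LLC replicate 2 or 3 or any 1 control replicate (limma adjusted p = 0.0694 to 0.125 for Fth1 and 0.0578 to 0.0906 for Ftl1). That of Fth1 was lost with median-ratio scaling and with the GC and length trend removed (limma adjusted p = 0.0595 and 0.0593), and both were lost without the filter (0.137 for Fth1 and 0.0679 for Ftl1). With the GC and length trend removed the log2 difference of Ftl1 was 0.09 (limma adjusted p = 0.195). The log2 difference of Fth1 was smallest, at 0.20, without LLC replicate 1, whose cerebellar library had 8767 TPM of Fth1, and it still passed. Together the transcripts of the 2 chains held 0.591% to 0.718% of all TPM in LLC neocortex and 0.561% to 0.578% in control neocortex. In hippocampus they held 0.732% to 0.797% in LLC and 0.592% to 0.633% in control libraries. In neither region did the shares of the groups overlap.

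The ratio of heavy to light chain transcripts, both per length, was 10.7 ± 0.860 in LLC and 9.41 ± 0.801 in control hippocampus (SD, n = 4 each). In neocortex it was 7.53 ± 0.361 in LLC and 7.47 ± 0.319 in control libraries. In cerebellum it was 5.10 to 5.86 in LLC replicates 2 to 4 and 10.7 in LLC replicate 1, against 5.11 to 6.18 in controls. The groups overlapped in each region, and the ratios were not tested. Reads of Fth1 and Ftl1 can also fit processed copies elsewhere in the genome, and how the authors assigned them is not given in the sources used here. The 11 other ferritin-named symbols in the table reached at most 0.164 TPM.

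Of the export genes, Slc40a1 (chromosome 1, 45908068 to 45926523, minus strand) encodes ferroportin. In cerebellum it stood at 3.26, 3.14, 2.88 and 4.03 TPM in LLC mice, against 5.93, 5.10, 5.06 and 4.88 TPM in control mice. All LLC values lay below all control values, with LLC replicate 4 the nearest to them. The log2 difference was -0.53 ± 0.11 (limma adjusted p = 0.0389). The scale adds 1 to values this low and so understates the change. The call held without LLC replicate 1 (-0.53 ± 0.11, limma adjusted p = 0.0258) and without LLC replicate 4 (-0.61 ± 0.09, limma adjusted p = 0.00929). It was lost without LLC replicate 2 or 3 or any 1 control replicate (limma adjusted p = 0.0872 to 0.136), without the filter (0.0733) and with the GC and length trend removed (-0.47, limma adjusted p = 0.0755).

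In neocortex Slc40a1 stood at 3.80, 4.76, 3.92 and 5.69 TPM in LLC mice, against 6.42, 5.88, 5.51 and 5.66 TPM in control mice. In hippocampus it stood at 3.49, 3.89, 3.62 and 5.54 TPM in LLC mice, against 6.36, 5.80, 6.07 and 5.19 TPM in control mice. In both regions LLC replicates 1 to 3 were below every control and LLC replicate 4 was within the control range. The log2 differences were -0.32 ± 0.10 in neocortex (limma adjusted p = 0.0785) and -0.43 ± 0.12 in hippocampus (limma adjusted p = 0.0830). Without LLC replicate 4 both passed, at -0.42 ± 0.08 in neocortex (limma adjusted p = 0.00588) and -0.55 ± 0.09 in hippocampus (limma adjusted p = 0.00674). Over the region average Slc40a1 fell by 0.43 ± 0.10 on the log2 scale (limma adjusted p = 0.0224), and the call was lost without LLC replicate 2 or 3 or control replicate 14, 15 or 16 (limma adjusted p = 0.0536 to 0.0691) and without the filter (0.0555).

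Cp (chromosome 3, 19957054 to 20009145, plus strand) encodes ceruloplasmin. In neocortex it stood at 12.1, 10.7, 9.42 and 8.14 TPM in LLC mice, against 6.28, 6.44, 5.74 and 6.38 TPM in control mice. The lowest LLC value was above the highest control value. The log2 difference was 0.61 ± 0.10 (limma adjusted p = 0.0111), the largest of the 10 members in any region. It passed without each library in turn and under each of the other 5 settings tried.

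In hippocampus Cp stood at 6.97, 8.10, 5.52 and 5.41 TPM in LLC mice, against 3.81, 5.19, 4.27 and 4.99 TPM in control mice. The groups did not overlap, but 0.42 ± 0.13 on the log2 scale did not pass (limma adjusted p = 0.101). In cerebellum Cp stood at 15.7, 13.3, 16.3 and 10.1 TPM in LLC mice, against 10.8, 11.9, 10.6 and 11.2 TPM in control mice. LLC replicate 4 was below all controls there, and the log2 difference was 0.27 ± 0.13 (limma adjusted p = 0.233). Without LLC replicate 4 Cp passed in hippocampus (0.49 ± 0.13, limma adjusted p = 0.0447) and in cerebellum (0.40 ± 0.09, limma adjusted p = 0.0286). Over the region average Cp rose by 0.44 ± 0.10 (limma adjusted p = 0.0213), and the call was lost without LLC replicate 2 or control replicate 14, 15 or 16 (limma adjusted p = 0.0505 to 0.0698) and without the filter (0.0527). Cp overlaps Hps3 on the other strand; the library kit keeps strand, but whether the counting used it is not given in the sources used here.

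Markers of several cell types also differed between LLC and control libraries. Of 10 endothelial markers, 9 passed upward in neocortex, 2 in cerebellum and 8 in hippocampus. Their sum was 363 to 515 TPM in LLC neocortex and 259 to 292 TPM in control neocortex, 358 to 556 and 310 to 333 TPM in LLC and control cerebellum, and 293 to 372 and 199 to 233 TPM in LLC and control hippocampus. All erythrocyte markers that could be tested passed upward: 6 in neocortex, 7 in cerebellum and 5 in hippocampus. Of the neutrophil markers tested, 5 of 7 passed upward in neocortex, 4 of 6 in cerebellum and 4 of 5 in hippocampus, and their sum was 27.5 to 209 TPM in LLC and 2.56 to 17.9 TPM in control libraries. No marker of these lists was at 0 in all libraries. Of 10 astrocyte markers, 3 rose and 1 fell in neocortex, 1 rose and 1 fell in cerebellum and 2 rose in hippocampus. Their sum was 2240 to 2418 TPM in LLC neocortex and 2049 to 2223 TPM in control neocortex, 3161 to 3483 and 3094 to 3188 TPM in LLC and control cerebellum, and 2175 to 2481 and 2157 to 2368 TPM in LLC and control hippocampus.

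None of 10 microglial markers passed in a region. Their sum was 402, 436, 378 and 529 TPM in LLC neocortex, against 467 to 500 TPM in control neocortex, and 374, 405, 332 and 515 TPM in LLC hippocampus, against 435 to 459 TPM in control hippocampus. LLC replicates 1 to 3 were thus below all controls and LLC replicate 4 above them in both regions, and LLC replicate 4 was also the LLC library with the smallest Slc40a1 difference there. In cerebellum the microglial sum was 196 to 256 TPM in LLC and 219 to 245 TPM in control libraries. Of 8 neuronal markers, Tubb3 and Stmn2 fell in neocortex and hippocampus, Rbfox3 rose in hippocampus, and none passed in cerebellum. The neuronal sum was 3717 to 4224 TPM in LLC neocortex and 4169 to 4353 TPM in control neocortex, 3110 to 3375 and 3252 to 3373 TPM in LLC and control cerebellum, and 3115 to 3359 and 3401 to 3626 TPM in LLC and control hippocampus. Of the border macrophage markers F13a1 rose in neocortex, 1 of 6 tested, and none passed in the other regions. None of 8 choroid plexus markers passed in a region, and their sum varied widely within groups, from 54.1 to 7462 TPM in LLC and 52.3 to 4092 TPM in control hippocampus. The part of all these cells in the values of Fth1, Ftl1, Slc40a1 and Cp was not tested.

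Of the uptake genes, Tfrc (chromosome 16, 32608920 to 32632794, plus strand) encodes transferrin receptor 1 and carries the 3′ elements shown above. In neocortex it stood at 90.6, 78.8, 115 and 64.9 TPM in LLC mice, against 71.1, 61.8, 68.9 and 65.5 TPM in control mice. In cerebellum it stood at 82.5, 78.9, 118 and 65.1 TPM in LLC mice, against 80.6, 66.3, 72.5 and 68.5 TPM in control mice. In hippocampus it stood at 85.2, 74.8, 111 and 68.7 TPM in LLC mice, against 68.9, 62.4, 74.0 and 63.4 TPM in control mice. The LLC replicates kept 1 order in all 3 regions: replicate 3 was highest, then 1, then 2, and replicate 4 lay within or below the control range. No region passed, with log2 differences of 0.35 ± 0.14 in neocortex, 0.23 ± 0.15 in cerebellum and 0.31 ± 0.13 in hippocampus (limma adjusted p = 0.126, 0.389 and 0.190). Without LLC replicate 4 Tfrc passed in neocortex (0.48 ± 0.11, limma adjusted p = 0.00882) and in the region average (0.41 ± 0.11, limma adjusted p = 0.0233). Tfrc is also abundant in immature red cells and in brain endothelium, whose markers are given above.

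Trf (chromosome 9, 103204001 to 103230444, minus strand) encodes transferrin. In neocortex it stood at 233, 197, 185 and 229 TPM in LLC mice, against 232, 255, 226 and 233 TPM in control mice. In cerebellum it stood at 539, 337, 308 and 497 TPM in LLC mice, against 511, 416, 484 and 478 TPM in control mice. In hippocampus it stood at 125, 210, 137 and 292 TPM in LLC mice, against 162, 180, 232 and 221 TPM in control mice. LLC values lay on both sides of the controls in cerebellum and hippocampus, and no region passed (limma adjusted p = 0.152 in neocortex, 0.479 in cerebellum and 0.802 in hippocampus). The summed myelin markers had their highest LLC values in the libraries with the most Trf, 4837 TPM in cerebellar LLC replicate 1 and 3606 TPM in hippocampal LLC replicate 4. They had their lowest hippocampal value, 1571 TPM, in LLC replicate 1, which also had the lowest Trf. In neocortex 4 of 10 myelin markers fell, with sums of 2363 to 2575 TPM in LLC and 2664 to 2871 TPM in control libraries. The part of myelin in the Trf values was not tested. Without LLC replicate 4 Trf passed in the region average, at -0.29 ± 0.07 (limma adjusted p = 0.0172). Trf shares its strand and part of its span with the annotated gene Gm20425, so reads could be split between them.

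Slc11a2 (chromosome 15, 100387898 to 100425072, minus strand) encodes divalent metal transporter 1. In hippocampus it stood at 30.8, 32.5, 31.5 and 30.4 TPM in LLC mice, against 30.1, 29.4, 28.5 and 28.5 TPM in control mice. The groups did not overlap, yet the log2 difference of 0.10 ± 0.04 did not pass (limma adjusted p = 0.220). It ranged from 21.5 to 25.8 TPM in LLC neocortex and 19.9 to 21.7 TPM in control neocortex, and from 28.7 to 33.5 TPM in LLC and 28.5 to 31.3 TPM in control cerebellum. Neither region passed (limma adjusted p = 0.104 in neocortex and 0.438 in cerebellum). Without LLC replicate 4 it passed in neocortex (0.20 ± 0.05, limma adjusted p = 0.0241) and in the region average (0.13 ± 0.04, limma adjusted p = 0.0469).

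Of the genes of haem iron and iron sensing, Hmox1 (chromosome 8, 75093621 to 75100589, plus strand) encodes haem oxygenase 1, which frees iron from haem and is known as a stress-induced gene. The haemoglobin transcripts summed to 2609 to 15477 TPM in LLC and 727 to 1617 TPM in control libraries, and a link of Hmox1 to them was not tested. Hmox1 did not pass in any region. It averaged 5.96 ± 0.409 TPM in LLC neocortex and 5.47 ± 0.281 TPM in control neocortex, 6.12 ± 0.820 and 6.17 ± 0.726 TPM in LLC and control cerebellum, and 6.34 ± 0.985 and 5.92 ± 0.849 TPM in LLC and control hippocampus (SD, n = 4 each). The groups overlapped in all 3 regions.

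Aco1 (chromosome 4, 40143081 to 40198338, plus strand) encodes iron regulatory protein 1, which doubles as cytosolic aconitase. In neocortex it stood at 18.0, 18.3, 17.7 and 19.2 TPM in LLC mice, against 19.9, 20.7, 20.1 and 20.9 TPM in control mice. All LLC values were below all control values, and the log2 difference of -0.15 ± 0.04 lay just outside the threshold (limma adjusted p = 0.0536). It passed with median-ratio scaling (limma adjusted p = 0.0368), with the GC and length trend removed (0.0403) and without LLC replicate 4 (0.0142). In cerebellum Aco1 ranged from 22.6 to 27.5 TPM in LLC and 26.0 to 27.9 TPM in control libraries, and in hippocampus from 18.3 to 20.2 TPM in LLC and 19.0 to 20.6 TPM in control libraries. Without LLC replicate 4 the region average passed too, at -0.14 ± 0.04 (limma adjusted p = 0.0256).

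Ireb2 (chromosome 9, 54863789 to 54912530, plus strand) encodes iron regulatory protein 2. In cerebellum it stood at 40.0, 57.4, 63.5 and 54.4 TPM in LLC mice, against 62.8, 63.1, 62.9 and 65.2 TPM in control mice. LLC replicate 1, the library with the highest Fth1, was the lowest. The log2 difference was -0.25 ± 0.12 (limma adjusted p = 0.230) and, without that library, -0.12 ± 0.06 (limma adjusted p = 0.205). Ireb2 ranged from 35.7 to 39.2 TPM in LLC neocortex and 37.6 to 39.1 TPM in control neocortex, and from 36.4 to 41.4 TPM in LLC and 40.3 to 44.8 TPM in control hippocampus. Neither region passed (limma adjusted p = 0.831 in neocortex and 0.377 in hippocampus).

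**Figure D3:**
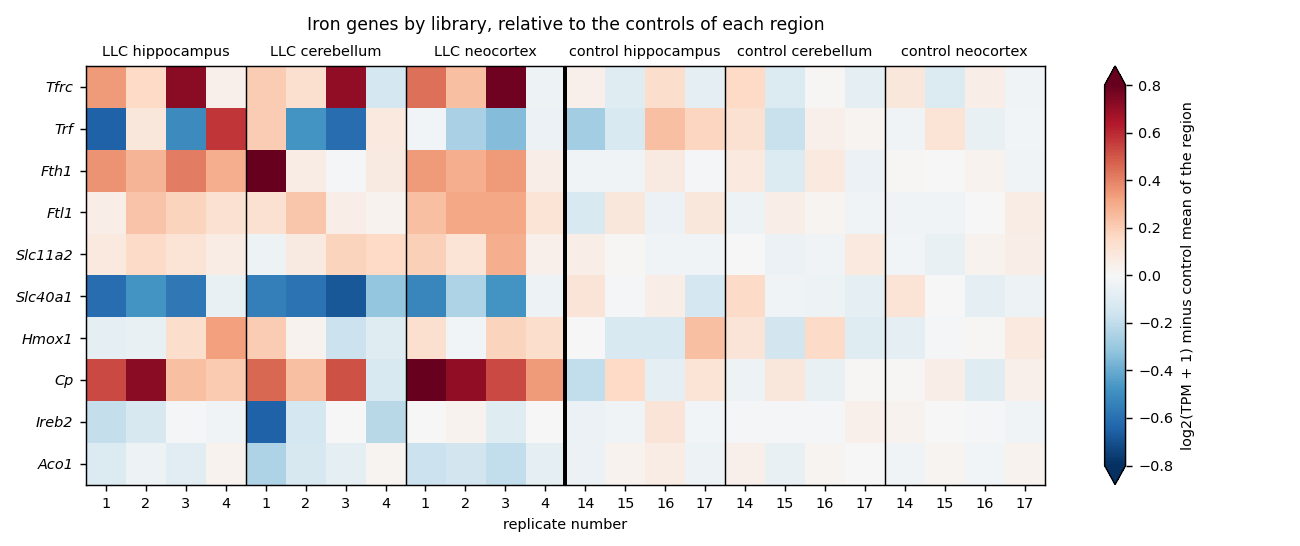
Log2(TPM + 1) of each gene in each library minus the mean of the 4 control libraries of its region, with the 12 LLC libraries left of the 12 control libraries; red is higher, blue is lower, and values past 0.8 in size have the end colours. LLC replicates 1 to 3 are blue for Slc40a1 and red for Cp in all 3 regions, LLC replicate 4 is paler for Tfrc and Slc40a1, and cerebellar LLC replicate 1 has the darkest red for Fth1 and a dark blue for Ireb2.

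Leaving out LLC replicate 4 changed more calls than any other library. Without it 7 of 10 members passed in neocortex, beside 26.5% of all genes. In cerebellum 2 passed, beside 10.7%, in hippocampus 3, beside 11.4%, and in the region average 8, beside 30.1%. The share of all genes that passed was thus higher in every comparison too. Leaving out any 1 of the other LLC or control libraries left 1 or 2 passing members in neocortex, 0 or 1 in cerebellum, 0 or 1 in hippocampus and 0 to 4 in the region average.

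In the fit of the 24 libraries without a block, no member passed for a difference between regions in its response to LLC cells. This held for hippocampus minus cerebellum, hippocampus minus neocortex and cerebellum minus neocortex, where 0.0936%, 0% and 0.646% of all genes passed. At an unadjusted limma p under 0.05 the count was 0 members in each of these 3 tests, and 1706, 271 and 1782 of all genes. For Fth1 the hippocampal effect minus the neocortical one was 0.08, with a 95% interval of -0.34 to 0.50. The fit takes a shared spread for each gene from all groups, so this interval includes the spread from cerebellar LLC replicate 1 (8767 TPM). Its SE was 0.20, where the effects fitted within a region had an SE of 0.05 in hippocampus and 0.07 in neocortex.

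Libraries of cerebellum and neocortex with the same replicate number deviated together, so the number was also fitted as a block. No member passed with the block either, beside 1.49% of all genes. At an unadjusted limma p under 0.05 the count was 3 of 10 members, beside 2460 of 13783 genes. The cerebellar effect minus the neocortical one was -0.34 for Cp, with a 95% interval of -0.61 to -0.06 with the block and -0.72 to 0.05 without it. For Slc40a1 it was -0.21, with an interval of -0.40 to -0.03 with the block and -0.55 to 0.13 without it. For Ireb2 it was -0.24. With the block the limma adjusted p was 0.185 for Cp, 0.215 for Slc40a1 and 0.275 for Ireb2. With the GC and length trend also removed, the 95% intervals of Cp and Slc40a1 were -0.53 to 0.03 and -0.37 to 0.01. That of Ireb2 was then -0.22 to 0.09. A block fit of these 2 regions alone gave -0.58 to -0.09 for Cp, -0.43 to 0.01 for Slc40a1 and -0.53 to 0.05 for Ireb2. With the block and the GC and length trend removed, Ftl1 passed at -0.26 (95% interval -0.37 to -0.14, limma adjusted p = 0.0384), beside 1.29% of all genes, while with the block alone it was -0.14 (limma adjusted p = 0.280). A response called in 1 region and not in another is not by itself a difference between them.

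Some of the members varied together across libraries after the mean of each region was subtracted, and others did not. Over the 24 libraries Slc40a1 went against Cp (Pearson r = -0.79), Ftl1 (-0.71) and Tfrc (-0.71) and with Aco1 (0.75). Cp went with Ftl1 (0.80), and Fth1 went against Ireb2 (-0.80) and Aco1 (-0.72). Hmox1 had no r above 0.46 in size with any member. Other pairs had an r near 0, such as Trf with Fth1 (0.04) and Ireb2 with Tfrc (-0.09) and with Slc11a2 (-0.05). These values describe libraries that share a treatment, and the 3 libraries of a number may share an animal. The LLC and control groups and cerebellar LLC replicate 1 enter all of them.

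Of 12580 genes compared in the same way, those most like Slc40a1 were Fabp7, a fatty acid binding protein of radial glia and astrocytes (r = 0.97), Tbc1d19 (0.95) and Acat3 (0.95). Those most like Cp were Kdr, a receptor for vascular endothelial growth factor (0.93), Tlr7, a sensor of single-stranded RNA (0.92), and Fn1, fibronectin (0.92). Kdr is also on the endothelial list. For Fth1 they were B3gat1, a glucuronyltransferase (0.93), Rtkn (0.92), and Gstm5, a glutathione transferase (0.91). For Ftl1 they were Stat6, a cytokine-activated transcription factor (0.91), Plec, a cytoskeletal linker (0.90), and Ifitm2, an interferon-induced membrane protein (0.90).

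Levels in control brain differed by region for most members, as they did for most genes, and the scaling changed some of the directions. The median of all genes was 0.31 higher on the log2 scale in cerebellum than in neocortex and differed by -0.23 between hippocampus and cerebellum and by 0.08 between hippocampus and neocortex. In these comparisons 84.9%, 83.0% and 62.1% of all genes passed, and of the members 7, 6 and 6 of 10. With median-ratio scaling the medians were 0.02, -0.02 and -0.01, 80.1%, 79.5% and 61.0% of all genes passed, and 8, 8 and 5 of the members did. Of the genes that passed between cerebellum and neocortex, 8930 were higher and 3575 lower in TPM, and 5988 and 5814 after that scaling. Between hippocampus and cerebellum 4002 were higher and 8301 lower in TPM, and 5721 and 6049 after it. Between hippocampus and neocortex 5934 were higher and 3110 lower in TPM, and 4369 and 4516 after it.

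Fth1 was the most abundant member in every region, at 5501 ± 181 TPM in hippocampus, 4288 ± 285 TPM in cerebellum and 5024 ± 88.5 TPM in neocortex (SD, n = 4 each). It was lower in cerebellum than in neocortex and higher in hippocampus than in cerebellum under both scalings. Its higher level in hippocampus than in neocortex, 0.13 on the log2 scale (limma adjusted p = 0.0180), was 0.03 after median-ratio scaling (limma adjusted p = 0.551), and it was lost without the filter (0.0816) and without control replicate 16 or 17 (limma adjusted p = 0.0538 to 0.0737).

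Trf averaged 199 ± 33.2 TPM in hippocampus, 472 ± 39.9 TPM in cerebellum and 237 ± 12.8 TPM in neocortex. Cp averaged 4.56 ± 0.642 TPM in hippocampus, 11.1 ± 0.544 TPM in cerebellum and 6.21 ± 0.320 TPM in neocortex (SD, n = 4 each). Both had the order cerebellum, neocortex, hippocampus, and all 3 steps of both passed under both scalings. Only the step of Trf between hippocampus and neocortex (limma adjusted p = 0.0285) was lost without a library, control replicate 14 or 15 (limma adjusted p = 0.103 to 0.161), and it was also lost without the filter (limma adjusted p = 0.0570).

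Ireb2 averaged 41.7 ± 2.11 TPM in hippocampus, 63.5 ± 1.14 TPM in cerebellum and 38.3 ± 0.645 TPM in neocortex (SD, n = 4 each). Its cerebellar level was the highest under both scalings. The step between hippocampus and neocortex, 0.12 (limma adjusted p = 0.0132), was 0.02 after median-ratio scaling (limma adjusted p = 0.582) and was lost without control replicate 16 or 17 (limma adjusted p = 0.0538 to 0.0952). Aco1 averaged 19.8 ± 0.757 TPM in hippocampus, 27.1 ± 0.850 TPM in cerebellum and 20.4 ± 0.475 TPM in neocortex. Its cerebellar level was higher than the hippocampal one under both scalings, while its step of 0.39 over neocortex was 0.09 after median-ratio scaling (limma adjusted p = 0.0518) and the hippocampal level was then below the neocortical one (-0.14, limma adjusted p = 0.00631).

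Ftl1 averaged 586 ± 42.8 TPM in hippocampus, 751 ± 21.6 TPM in cerebellum and 673 ± 19.5 TPM in neocortex (SD, n = 4 each). Its hippocampal level was the lowest under both scalings, but cerebellum against neocortex turned from 0.16 to -0.16 after median-ratio scaling (limma adjusted p = 0.00493 and 0.00264). Slc11a2 averaged 29.1 ± 0.771 TPM in hippocampus, 29.5 ± 1.23 TPM in cerebellum and 20.9 ± 0.778 TPM in neocortex. Its neocortical level was the lowest under both scalings, and hippocampus against cerebellum turned from -0.02 (limma adjusted p = 0.668) to 0.20 (limma adjusted p = 9.29e-04). Tfrc averaged 67.2 ± 5.36 TPM in hippocampus, 72.0 ± 6.28 TPM in cerebellum and 66.8 ± 4.09 TPM in neocortex. No step of Tfrc passed in TPM without a block. With the replicate number as a block, cerebellum minus neocortex passed at 0.10 (limma adjusted p = 0.0267) and hippocampus minus cerebellum at -0.10 (limma adjusted p = 0.0361), beside 86.2% and 84.3% of all genes. The numbers were not taken to pair hippocampus with cerebellum. Cerebellum against neocortex turned from 0.10 to -0.21 after median-ratio scaling (limma adjusted p = 0.0100).

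Slc40a1 averaged 5.85 ± 0.500 TPM in hippocampus, 5.24 ± 0.471 TPM in cerebellum and 5.87 ± 0.399 TPM in neocortex (SD, n = 4 each). No step passed in TPM without a block. With the replicate number as a block, cerebellum minus neocortex passed at -0.14 (limma adjusted p = 0.0367) and hippocampus minus cerebellum at 0.13 (limma adjusted p = 0.0419). Here too the numbers were not taken to pair hippocampus with cerebellum. After median-ratio scaling the cerebellar level was below both others: hippocampus minus cerebellum was 0.32 (limma adjusted p = 0.00130) and cerebellum minus neocortex -0.41 (limma adjusted p = 1.67e-04). Hmox1 averaged 5.92 ± 0.849 TPM in hippocampus, 6.17 ± 0.726 TPM in cerebellum and 5.47 ± 0.281 TPM in neocortex, and none of its steps passed under either scaling.

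Of 74 other iron genes in the table, 64 were tested in neocortex, where 7 rose and 2 fell. In cerebellum 2 of 64 rose and none fell, and in hippocampus 6 of 62 rose and none fell. These shares were 14.1%, 3.12% and 9.68%, beside 8.54%, 2.50% and 3.61% of all genes tested in neocortex, cerebellum and hippocampus. The median log2 differences were 0.06 in neocortex, 0.03 in cerebellum and 0.05 in hippocampus. In the region average 10 of 62 rose and 1 fell, or 17.7%, near the 14.2% of all genes.

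The 2 genes that rose in every region are known for blood and inflammation. Lcn2 encodes lipocalin 2, which binds bacterial iron carriers in the acute-phase response. It averaged 6.61 ± 1.54 TPM in LLC neocortex and 0.186 ± 0.105 TPM in control neocortex, 6.91 ± 1.60 and 0.290 ± 0.153 TPM in LLC and control cerebellum, and 3.37 ± 0.861 and 0.0615 ± 0.0422 TPM in LLC and control hippocampus (SD, n = 4 each; limma adjusted p = 1.16e-05, 1.71e-04 and 9.93e-04). Alas2 encodes the haem synthesis enzyme of red cell precursors and is also on the erythrocyte list. It averaged 65.2 ± 31.5 TPM in LLC neocortex and 4.74 ± 0.582 TPM in control neocortex, with log2 differences of 3.32 in neocortex, 3.26 in cerebellum and 3.14 in hippocampus (limma adjusted p = 0.00334, 0.0150 and 0.00967). Of the other 8 haem synthesis genes tested, none passed in a single region. In the region average Alas1, the housekeeping form of the same enzyme, rose by 0.15 ± 0.04 (limma adjusted p = 0.0352), and Fech, which inserts iron into the haem ring, rose by 0.17 ± 0.05 (limma adjusted p = 0.0378). Hp, which encodes the haemoglobin scavenger haptoglobin, rose in neocortex by 1.59 ± 0.31 (limma adjusted p = 0.0187).

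Among 13 genes of hepcidin control and iron sensing, 9 were tested in neocortex and 8 in each of the other regions. Smad6 and Id1, both targets of bone morphogenetic protein signalling, rose in neocortex and hippocampus. Smad6 averaged 4.53 ± 1.26 TPM in LLC neocortex and 1.70 ± 0.234 TPM in control neocortex, and 3.22 ± 1.12 and 1.47 ± 0.141 TPM in LLC and control hippocampus (SD, n = 4 each; limma adjusted p = 0.0105 and 0.0391). Id1 averaged 39.7 ± 6.30 TPM in LLC neocortex and 26.7 ± 4.04 TPM in control neocortex, and 34.5 ± 8.88 and 20.5 ± 2.59 TPM in LLC and control hippocampus (limma adjusted p = 0.0296 and 0.0389). Hamp, which encodes hepcidin, the hormone that removes ferroportin from the cell surface, was below the filter in all 3 regions and was not tested. It averaged 0.201 ± 0.205 TPM in LLC neocortex and 0.0779 ± 0.156 TPM in control neocortex, 0.347 ± 0.349 and 0.0948 ± 0.190 TPM in LLC and control cerebellum, and 0.132 ± 0.170 and 0.441 ± 0.678 TPM in LLC and control hippocampus (SD, n = 4 each). The LLC mean was the higher one in neocortex and cerebellum and the lower one in hippocampus.

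Of 13 reductases and transporters, Heph and Mcoln1 rose and Snx3 fell in neocortex. Heph encodes hephaestin, a membrane ferroxidase related to ceruloplasmin, and averaged 4.21 ± 0.509 TPM in LLC neocortex and 2.98 ± 0.324 TPM in control neocortex (log2 difference 0.39 ± 0.09, limma adjusted p = 0.0340). Mcoln1 encodes a lysosomal cation channel that can pass iron. It rose by 0.24 ± 0.06 in neocortex and 0.32 ± 0.07 in hippocampus (limma adjusted p = 0.0419 and 0.0355). Snx3, a sorting nexin needed to recycle transferrin receptor, averaged 214 ± 6.13 TPM in LLC neocortex and 234 ± 2.86 TPM in control neocortex (-0.12 ± 0.03, limma adjusted p = 0.0419).

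Of 18 genes of mitochondrial iron and iron-sulphur clusters, Slc25a28, which encodes mitoferrin 2, rose in hippocampus by 0.29 ± 0.06 (limma adjusted p = 0.0374). Lyrm4, a partner of the cysteine desulphurase that builds the clusters, averaged 29.6 ± 1.26 TPM in LLC neocortex and 34.4 ± 1.25 TPM in control neocortex (-0.21 ± 0.04, limma adjusted p = 0.0224). None of the ferritin chaperone and receptor genes, 3 or 4 of them tested by region, passed.

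**Figure D4:**
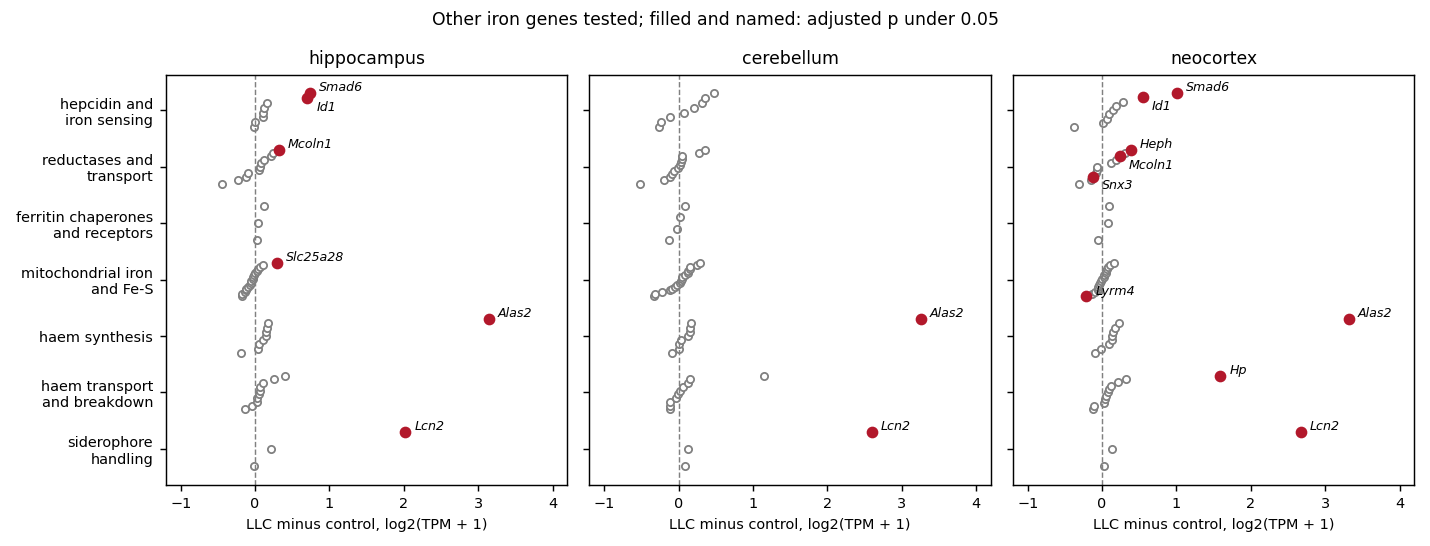
Difference between LLC and control libraries in log2(TPM + 1) for the other iron genes tested, by list (rows, spread vertically by size) and region (4 LLC and 4 control libraries each); filled and named points have a limma adjusted p under 0.05. Alas2 and Lcn2 lie far right in all 3 regions, and most other genes lie near 0.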

How the data were processed

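Per the labels' protocols, RNA from Trizol was sequenced as stranded TruSeq messenger RNA libraries on a NovaSeq. TPM values were deposited by the authors as 1 table, 47643 symbols by 24 libraries. The submitters' processing notes name mm10, and no source used here gives the aligner, counter or annotation. TPM keeps no read number and divides by the library's total, so a gene that takes more lowers all others.

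The 10 members and the other lists were chosen with earlier results of these data known. Each region was fitted with limma 3.58.1 (lmFit, eBayes with trend, R 4.3.3). Its input was log2(TPM + 1) of genes that averaged 1 TPM or more, and tests were two-sided, with Benjamini-Hochberg adjustment over all genes tested at 0.05. The region average used 1 mean per replicate number, differences between regions used 1 fit of 24 libraries without a block, and control levels used the 12 control libraries. The title numbers were taken to pair cerebellum with neocortex, from the data and not from the labels: same-numbered libraries had r = 0.11 to 0.50 in their deviations from the group means over all 8 numbers. P-values measure the spread between these libraries only. The fits were also run on simulated data drawn with independent noise for each gene and library. Such data hold no shared animals and no outlying libraries, and the outcome is not reported here.

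Named list genes passed in at least 1 region, at most 4 a list. Likeness was Pearson's r over 24 libraries with region means subtracted, and the 3 highest per passing member are named, without predicted genes. Symbols were matched to GENCODE M21 (94.6% to 1 gene). Alternatives were a pseudocount of 0.1, no filter, median-ratio scaling, GC and length trends removed (splines with 4 degrees of freedom), a replicate block and leaving out each replicate. The block was the title number between regions, and the number in the description labels within a region and in the region average. Figures used Python 3.11.15 and matplotlib 3.10.9.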

Additional observations from a re-analysis of the deposited data

Results flagged for a closer look

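Groups of 4 libraries were searched for a value that lay apart from the other 3, and 3 of 60 gene and group combinations had one. Chance gives about 1 in 20 for independent values, but these combinations share libraries and are not independent. Fth1 in cerebellar LLC replicate 1 stood at 8767 TPM, where the other cerebellar LLC libraries had 4253 to 4497 TPM. The same library had the lowest Gabra6 and the highest summed myelin markers of the cerebellar libraries. Ireb2 stood at 65.2 TPM in cerebellar control replicate 17, where the other controls had 62.8 to 63.1 TPM. Ireb2 also stood at 44.8 TPM in hippocampal control replicate 16, where the other controls had 40.3 to 41.0 TPM.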

How the results depend on the processing

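Of 1210 values of single members under other settings, 1065 kept their direction and their side of the threshold, 68 no longer passed, 23 newly passed, 51 changed sign with neither value passing, and 3 turned with a value that passed. The 3, all with median-ratio scaling of control levels, were Tfrc (-0.21) and Ftl1 (-0.16) for cerebellum against neocortex and Slc11a2 (0.20) for hippocampus against cerebellum. Members passing without a filter were 0 in cerebellum, hippocampus and the region average, and with the GC and length trend removed 0 in cerebellum and 2 in the region average. Leaving out 1 replicate gave 1 to 7 passing members in neocortex, 0 to 2 in cerebellum, 0 to 3 in hippocampus and 0 to 8 in the region average. Genes passing then were 187 to 3834, 6 to 1570, 57 to 1667 and 368 to 4107, and for the differences between regions 4 to 287 (cerebellum minus neocortex) and 1 to 220 (hippocampus minus cerebellum). Without a filter 577 genes passed in neocortex, 71 in cerebellum, 220 in hippocampus, 1088 in the region average, and 49, 2 and 21 for the differences cerebellum minus neocortex, hippocampus minus neocortex and hippocampus minus cerebellum. In cerebellum 653 passed with median-ratio scaling and 149 with the GC and length trend removed, and 58 for cerebellum minus neocortex with that trend removed. The main counts were 1237, 366, 529 and 1939, and 89, 0 and 13. Of the passing genes in neocortex 809 were higher and 428 lower, and 693 and 656 with median-ratio scaling, which gave 377 and 276 in cerebellum (180 and 186 in TPM) and 317 and 226 in hippocampus (378 and 151 in TPM). The cause of these shifts was not tested, except that leaving out a library leaves fewer samples and no filter tests more genes.

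With the number in the description labels as a block, 1 member passed in neocortex (Cp), and 641 genes passed in neocortex, 724 in cerebellum and 179 in hippocampus. With the title number as a block, 205 genes passed for cerebellum minus neocortex and 40 for hippocampus minus cerebellum. Within a region the numbers were not taken to pair the libraries, since LLC and control libraries that share a number in their description labels (the titles give the controls 14 to 17) had r = -0.30 to 0.49 in their deviations over 12 pairs. Nor were they between hippocampus and neocortex or cerebellum, with r over 0.1 in 4 and 6 of 8 pairs, where every pair was asked to exceed 0.1. Tfrc nonetheless kept 1 order of LLC replicates in all regions. With the block, no member had an unadjusted limma p under 0.05 in either hippocampal difference. The block with the GC and length trend removed was not run for hippocampus. For cerebellum minus neocortex, where the numbers were taken to pair the libraries, that fit gave 178 genes and 1 member (Ftl1). A block fit of these 2 regions alone, chosen after seeing the data, gave 1 gene and no member. With the block Tfrc and Slc40a1 newly passed in 2 control comparisons each. Beyond those and Fth1 and Ftl1 in neocortex, a block alone changed no call of a member. With 4 libraries a group and an unknown depth, small differences of low genes could not be resolved.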
